A study of Mus musculus with 6 samples.

Results

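The 10 genes described here encode the products through which regulatory T cells (Treg cells) are best known to restrain other immune cells and to support tissue repair. They were listed by published function, and each was found by the Ensembl gene ID that pairs with its symbol. All 10 were among the 47069 genes with an Ensembl ID in both deposited tables. They are Il10 (ENSMUSG00000016529), Ebi3 (ENSMUSG00000003206), Il12a (ENSMUSG00000027776), Tgfb1 (ENSMUSG00000002603), Lrrc32 (ENSMUSG00000090958), Nt5e (ENSMUSG00000032420), Entpd1 (ENSMUSG00000048120), Fgl2 (ENSMUSG00000039899), Areg (ENSMUSG00000029378) and Lgals1 (ENSMUSG00000068220).

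RNA was sequenced from 6 libraries of mouse Treg cells from lymph node and spleen, sorted as CD4+GFP+CD62Lhigh and then activated with Dynabeads for 48 h or 72 h. The control libraries came from Foxp3CreNoc4l+/fl (Het) mice and the others from Foxp3CreNoc4lfl/fl (cKO) mice, so both carried Foxp3Cre, which drives recombination in cells that express Foxp3, and at least 1 floxed Noc4l allele. The first deposited table held replicates Het 1 and cKO 2 at both times, and the second held Het 3 and cKO 4 at 72 h, giving 2 libraries per genotype at 72 h and 1 at 48 h. A passage of the labels gives both genotypes the same alleles, so the genotype was taken from the label of each library. The sources used here give no age and do not say if animals were separate or pooled, so a p-value measures no more than the spread among libraries. The unit was FPKM, a fragment count scaled to gene length and to the number of mapped fragments, and fold changes between genotypes were taken within a table.

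Treg cells use several parallel routes of suppression. TGF-beta1, from Tgfb1, is made in a latent form that the membrane protein GARP, from Lrrc32, holds at the cell surface until an integrin releases it. Interleukin 10 acts through its receptor and STAT3, and the chains encoded by Ebi3 and Il12a can pair to form interleukin 35. The ectoenzymes CD39 (Entpd1) and CD73 (Nt5e) act in sequence to turn extracellular ATP into adenosine. Fgl2 is a secreted fibrinogen-like protein that binds Fc receptors, and Lgals1 encodes the glycan-binding galectin-1. Areg encodes amphiregulin, a ligand of the epidermal growth factor receptor tied to tissue repair.

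The upstream sequences of Areg and Fgl2 are shown because, among members above 0 in both Het 1 libraries, these had the largest fold differences in FPKM there between 48 h and 72 h, Fgl2 upward and Areg downward. RefSeq start sites were matched for 7 of the 10 members, on the build GRCm38.p6, while the submitters' processing notes name mm9. Each sequence is the 250 bases before the start site on the plus strand, at chr5:91139349-91139598 for Areg and chr5:21372423-21372672 for Fgl2. Capitals mark letters that match one of the motifs searched on both strands: the cAMP response element TGACGTCA, the AP-1 site TGANTCA, the NFAT core GGAAAA, the forkhead site GTAAACA and the TATA box TATAAA.
Areg: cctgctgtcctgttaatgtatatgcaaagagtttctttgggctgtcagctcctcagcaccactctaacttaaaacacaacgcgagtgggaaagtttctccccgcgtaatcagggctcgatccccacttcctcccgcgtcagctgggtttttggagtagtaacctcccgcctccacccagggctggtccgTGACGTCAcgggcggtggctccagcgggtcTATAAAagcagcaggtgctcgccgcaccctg
Fgl2: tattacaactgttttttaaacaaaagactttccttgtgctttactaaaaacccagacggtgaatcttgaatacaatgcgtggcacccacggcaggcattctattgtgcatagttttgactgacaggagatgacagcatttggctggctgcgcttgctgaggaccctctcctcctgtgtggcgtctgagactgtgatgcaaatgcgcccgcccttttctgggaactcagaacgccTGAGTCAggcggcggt

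The Areg sequence held a cAMP response element at -61 and a TATA box at -31 from the start site, and the Fgl2 sequence an AP-1 site at -16. Among 32851 RefSeq windows of the same length, 1.55% held the cAMP response element, 12.4% the TATA box, 6.75% the AP-1 letters, 20.4% the NFAT core and 3.17% the forkhead site. The motifs of Areg do not overlap, and a match describes letters only, not binding.

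Estimated depth, in units of 1e6 fragments, was 16.5 to 28.8 per library. Noc4l, the targeted gene, was 40.8 to 99.1 FPKM in the libraries labelled Het and 58.1 to 124 in those labelled cKO. It was the higher value in cKO in all 3 pairs, against the labels, so every direction here refers to the library labelled Het or cKO. A value for the whole gene does not show by itself if an exon was deleted, and an exchange of labels was not tested. All 9 Treg and T cell markers, Foxp3 among them, were at 1 FPKM or more in all 6 libraries. Markers of other cells were uneven. The 14 neutrophil and myeloid genes summed to 440 and 379 FPKM in cKO 2 at 48 h and 72 h. Elsewhere they summed to 24.8 to 86.0, with S100a8 and S100a9 at 0 in Het 3 and cKO 4. Most of the sum outside cKO 2 came from Ltf alone. Ltf was 43.5 and 38.2 FPKM in Het 1 at 48 h and 72 h, 21.4 in Het 3 and 75.3 in cKO 4. The 8 B cell genes summed to 26.6 and 94.5 in cKO 2 and to 9.23 to 14.5 elsewhere. At 72 h the 7 CD8 T and NK cell genes summed to 230 in cKO 2 and 102 in cKO 4, against 72.0 and 16.4 in Het 1 and Het 3. Of these, Nkg7 alone was 148 in cKO 2 and 89.1 in cKO 4, against 29.1 in Het 1 and 6.48 in Het 3. At 48 h the 7 genes summed to 26.5 in Het 1 and 37.8 in cKO 2. Cd8a was 0.466 in Het 1 and 0.992 in cKO 2 at 48 h, and 20.3 and 39.0 at 72 h. Cd8b1 was 4.78 and 5.92 in these replicates at 48 h, and 11.5 and 19.1 at 72 h. In the second table Cd8b1 was 4.47 in cKO 4 against 4.69 in Het 3, and Cd8a was 2.24 against 1.01. The part of these cells in the results below was not tested except where a value is given, and in bulk RNA fewer cells of a type and less RNA per cell cannot be told apart.

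The 10 mediators lay at very different levels. Lgals1 was the most abundant in every library, at 658 to 1146 FPKM. Tgfb1 followed at 254 to 421 and Lrrc32 at 124 to 334, and these neighbours overlapped, with Lrrc32 above Tgfb1 only in Het 3. The ectoenzymes came next, Nt5e at 27.7 to 103 and Entpd1 at 19.0 to 90.0, and their ranges overlapped too. Il10 (3.69 to 30.3), Fgl2 (1.78 to 23.6) and Ebi3 (4.29 to 11.0) formed a lower tier whose order differed between libraries and whose upper values overlapped those of Entpd1. Areg, at most 1.39, and Il12a, at most 1.22, lay near the limit of detection. The ranges run across both tables, and no step that puts them on a common scale is given in the labels.

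**Figure D1:**
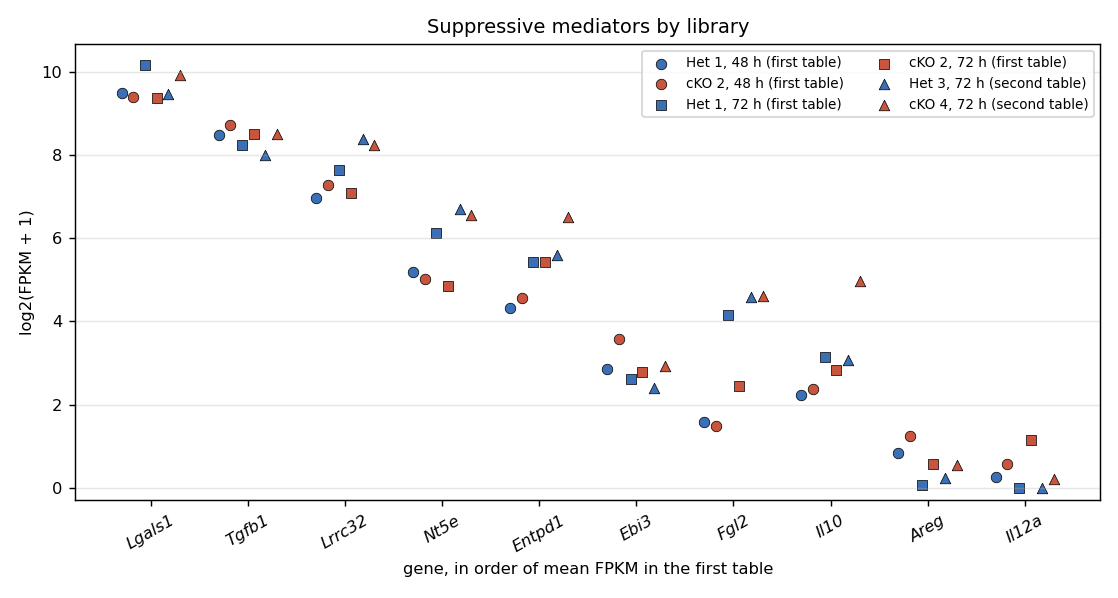
Level of each mediator as log2(FPKM + 1) in the 6 libraries, 1 point per library, with genotype by colour and time and table by shape. Lgals1 lies highest in every library, Areg and Il12a lie lowest, and Il10 in cKO 4 stands above its other 5 points.

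None of the mediators passed the test for genotype. At 72 h, 8 of the 10 had a mean of at least 1 FPKM and were tested, 4 were higher and 4 lower in the libraries labelled cKO, and 0 passed limma's adjusted p of 0.05. Over all 12488 genes tested 0% passed as well, and the smallest adjusted p of any gene was 0.106. At an unadjusted p under 0.05 there was 1 mediator, against 17.3% of all genes. The median log2 fold change of the 8 was 0.09, and that of all genes tested 0.08. The fit had 1 residual degree of freedom, and the intervals below are wide.

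**Figure D2:**
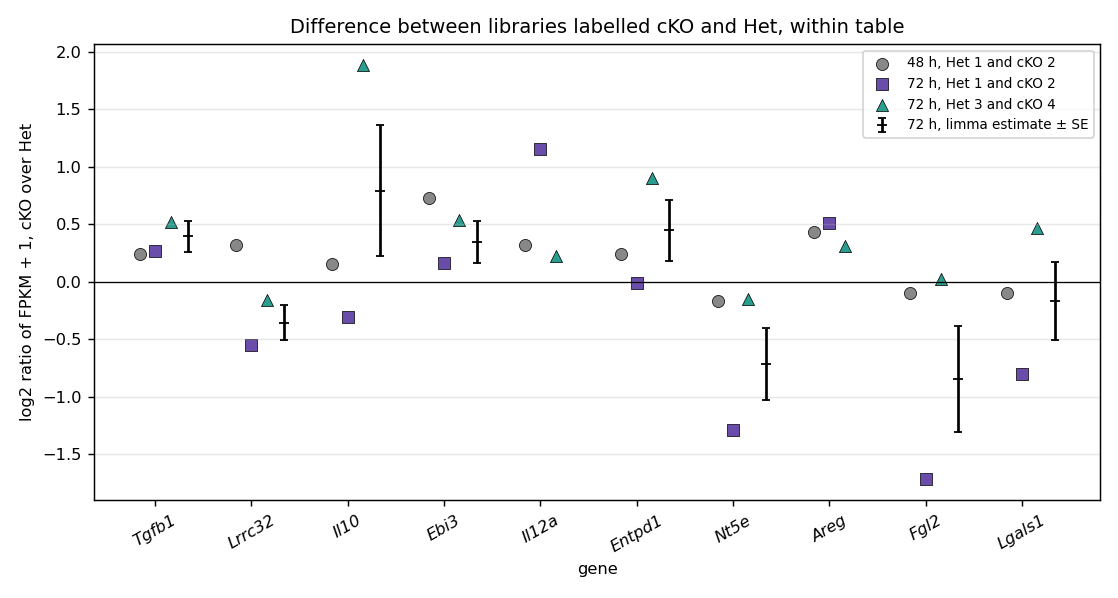
Log2 ratio of FPKM + 1, cKO over Het, for each mediator in the 3 pairs of libraries, with the 72 h limma estimate and its SE in black where the gene was tested. Tgfb1, Ebi3, Il12a and Areg lie above 0 in all 3 pairs, Nt5e lies below 0 in all 3, and Il10, Entpd1, Fgl2 and Lgals1 fall on both sides at 72 h.

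Members of the TGF-beta arm differed in direction at 72 h. Tgfb1 was 302 FPKM in Het 1 against 362 in cKO 2, while Het 3 had 254 and cKO 4 had 365. At the earlier time it was 357 in Het 1 and 421 in cKO 2. Across the tables both 72 h libraries labelled cKO were above both labelled Het, and the cKO value was the higher one in each of the 3 pairs, by 1.18, 1.20 and 1.44 times. The log2 fold change was 0.39 ± 0.14 at 72 h (SE, 2 libraries per genotype, 95% interval 0.01 to 0.77, limma adjusted p = 0.281) and 0.34 ± 0.11 over both times (limma adjusted p = 0.344). Of all genes, 23.5% of 12394 were higher in cKO in all 3 pairs and 14.7% lower in all 3. All cKO values lay above all Het values at 72 h for 25% of genes and below them for 13.7%.

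Lrrc32, the carrier of latent TGF-beta, was 200.2 FPKM in Het 1 against 136 in cKO 2, while Het 3 had 334 and cKO 4 had 299. Both pairs were lower in cKO at 72 h, as were 24.5% of 12394 genes. At 48 h the order was the other way, with 124 in Het and 155 in cKO. The spread between tables was larger than the difference within them, so the genotypes overlapped. At 72 h its log2 fold change was -0.36 ± 0.16 (SE, 95% interval -0.79 to 0.08, limma adjusted p = 0.341). The Lrrc32 difference between cKO and Het at 72 h minus that at 48 h was -0.67 ± 0.27 (SE, limma adjusted p = 0.856).

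Il10 stood out in a single library. It was 7.77 FPKM in Het 1, 6.11 in cKO 2, 7.47 in Het 3 and 30.3 in cKO 4 at 72 h, and 3.69 and 4.20 in Het 1 and cKO 2 at 48 h. The pair of Het 3 and cKO 4 differed 4.06-fold, and 1.06% of 12394 genes lay as far from 0 in that pair, while in the other 72 h pair the cKO value was the lower one. The log2 fold change over both pairs was 0.79 ± 0.57 (SE, 95% interval -0.82 to 2.40, limma adjusted p = 0.509), with 1.89 in the second table and -0.30 in the first table.

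Of the 6 listed regulators of Il10, 3 were lower in cKO in the first table and higher in the second at 72 h, as Il10 was and as 19.5% of 12394 genes were. These were Maf, Prdm1 and Nfil3. Ahr and Stat3 were higher in cKO in both tables, and Bhlhe40 was lower in both. Maf was 59.2 FPKM in Het 3 with 113 in cKO 4, against 23.6 in Het 1 and 10.6 in cKO 2. Prdm1, which encodes Blimp-1, went from 19.6 to 32.4 in the second table and from 14.0 to 6.57 in the first table. Maf, Prdm1, Nfil3 and Stat3 were named after their values were seen. Maf and Prdm1 did not pass for genotype at 72 h (limma adjusted p = 0.946 and 0.883).

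The chains of interleukin 35 were far apart in level. At 48 h Ebi3 was 6.21 FPKM in Het 1 against 11.0 in cKO 2. At 72 h it was 5.11 against 5.84 in these replicates, and 4.29 in Het 3 against 6.65 in cKO 4. The cKO value was higher in each pair, by 1.77, 1.14 and 1.55 times. Of all genes, 23.5% of 12394 were higher in cKO in all 3 pairs. Across the tables at 72 h both cKO libraries lay above both Het libraries, as for 25% of genes. The log2 fold change was 0.35 ± 0.18 at 72 h (SE, 95% interval -0.16 to 0.86, limma adjusted p = 0.397) and 0.48 ± 0.16 over both times (limma adjusted p = 0.352).

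Il12a rested on few fragments and was left out of the tests by its low mean. It was 0.190 FPKM in Het 1 at 48 h, an estimated 6 fragments, and 0.485 in cKO 2, or 12 fragments. At 72 h it was listed at 0 in Het 1 and Het 3, at 1.22 in cKO 2 (32 fragments, 95% Poisson interval 0.835 to 1.72 FPKM) and at 0.166 in cKO 4 (3 fragments). In the first table at 72 h it was at least 9.35-fold higher in cKO 2 than 3 fragments in Het 1 would give, and the second table allows no fold. The B cell genes, which also peaked in cKO 2 at 72 h, summed to 94.5 FPKM there, and the CD8 T and NK cell genes to 230. The 6 dendritic cell genes, from cells that also express Il12a, summed at 48 h to 1.01 FPKM in Het 1 against 3.20 in cKO 2. At 72 h they summed to 0.393 in Het 1, 4.07 in cKO 2, 0.305 in Het 3 and 1.37 in cKO 4, with Clec9a at 0 in all 6 libraries. The part of these cells in the Il12a values was not tested, and the CD4+GFP+CD62Lhigh sort is one that should leave them out. Other partners of these chains were near 0, with Il12b at most 0.140 and Il27 at most 0.179 FPKM.

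The ectoenzymes of adenosine production parted at 72 h. Nt5e, which makes adenosine from AMP, was 69.1 FPKM in Het 1 against 27.7 in cKO 2, while Het 3 had 103 and cKO 4 had 93.0. At 48 h it was 35.4 against 31.4. It was the only mediator lower in cKO in all 3 pairs, as 14.7% of 12394 genes were. Nt5e differed 2.49-fold in the pair of Het 1 and cKO 2 at 72 h but 1.13-fold and 1.11-fold in the other pairs. At 72 h its log2 fold change was -0.72 ± 0.31 (SE, 95% interval -1.60 to 0.16, limma adjusted p = 0.338). Entpd1, the enzyme before it, was 42.4 in Het 1 and 42.0 in cKO 2, while Het 3 had 47.6 and cKO 4 had 90.0, so its difference rested on the second table. Its log2 fold change was 0.45 ± 0.26 (SE, 95% interval -0.29 to 1.18, limma adjusted p = 0.436).

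The ratio of Entpd1 to Nt5e within a library was higher in cKO in every pair. It was 0.536 in Het 1 and 0.718 in cKO 2 at 48 h, 0.613 and 1.51 in the same numbers at 72 h, and 0.460 in Het 3 against 0.968 in cKO 4. Across both times and both tables the highest Het value, 0.613, was below the lowest cKO value. How many other gene pairs part in this way was not counted. The ratio was chosen after the values were seen and is given with no test. At 72 h the ratio differed through lower Nt5e in the first table and higher Entpd1 in the second.

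The secreted factors differed between the 72 h pairs. Fgl2 was 16.9 FPKM in Het 1 against 4.42 in cKO 2, a 3.82-fold difference, but 23.2 in Het 3 and 23.6 in cKO 4. Its log2 fold change was -0.85 ± 0.46 (SE, 95% interval -2.15 to 0.45, limma adjusted p = 0.410). Lgals1 was 1146 in Het 1 and 658 in cKO 2, while in the second table the order turned, with 704 in Het 3 and 972 in cKO 4. Its log2 fold change was -0.17 ± 0.34 (SE, 95% interval -1.13 to 0.80, limma adjusted p = 0.819). Fgl2 is also a product of myeloid cells. Their markers at 72 h summed to 43.9 FPKM in Het 1 against 379 in cKO 2, while Het 3 had 24.8 and cKO 4 had 86.0. Ltf alone was 38.2 in Het 1, 107 in cKO 2, 21.4 in Het 3 and 75.3 in cKO 4. S100a8 and S100a9 were at 0 in Het 3 and cKO 4. The part of myeloid cells in the Fgl2 values was not tested.

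At very low counts, Areg was higher in cKO in all 3 pairs, as were 23.5% of 12394 genes of higher mean. At 48 h it was 0.772 FPKM in Het 1 (27 fragments) and 1.39 in cKO 2 (38 fragments), a ratio of 1.80 with a 95% counting interval of 1.07 to 3.06. At 72 h it was 0.0393 in Het 1 (1 fragment) and 0.483 in cKO 2 (14 fragments), a ratio of 12.3 (1.87 to 519), and 0.169 in Het 3 (5 fragments) and 0.450 in cKO 4 (9 fragments), a ratio of 2.66 (0.800 to 10.1). These intervals cover counting error only. Mast cell and basophil markers, whose cells also make amphiregulin, summed to 3.07 and 2.87 FPKM in cKO 2 at 48 h and 72 h. In the other 4 libraries they summed to 0.397 or less. Most of the sum in cKO 2 came from Mcpt8 alone, at 2.60 and 2.16. The part of these cells in the Areg values was not tested. The sort for CD4+GFP+CD62Lhigh cells should leave them out. The receptor Egfr stayed at 0.267 FPKM or less in every library.

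Over both times together, 0 of the 8 tested mediators passed for genotype, as did 0% of 12394 genes, and 2 had an unadjusted p under 0.05, Tgfb1 and Ebi3, both higher, against 13.3% of all genes (8.04% higher and 5.28% lower). At 48 h, with 1 library per genotype and no test, 7 mediators were higher in cKO and 3 lower, where 49.2% of genes were higher and 50.7% lower. The median log2 ratio of the 8 tested mediators was 0.19 against 0.00 for all genes. None was past 2-fold on the log2(FPKM + 1) scale, where 1.11% of genes were at least 2-fold higher and 0.799% lower. At 72 h, Il12a was past 2-fold higher and Nt5e and Fgl2 past 2-fold lower in the pair of Het 1 and cKO 2, where 4.85% and 3.8% of genes were. Il10 alone was past 2-fold in the pair of Het 3 and cKO 4, where 3.78% of genes were at least 2-fold higher and 1.75% lower.

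**Figure D3:**
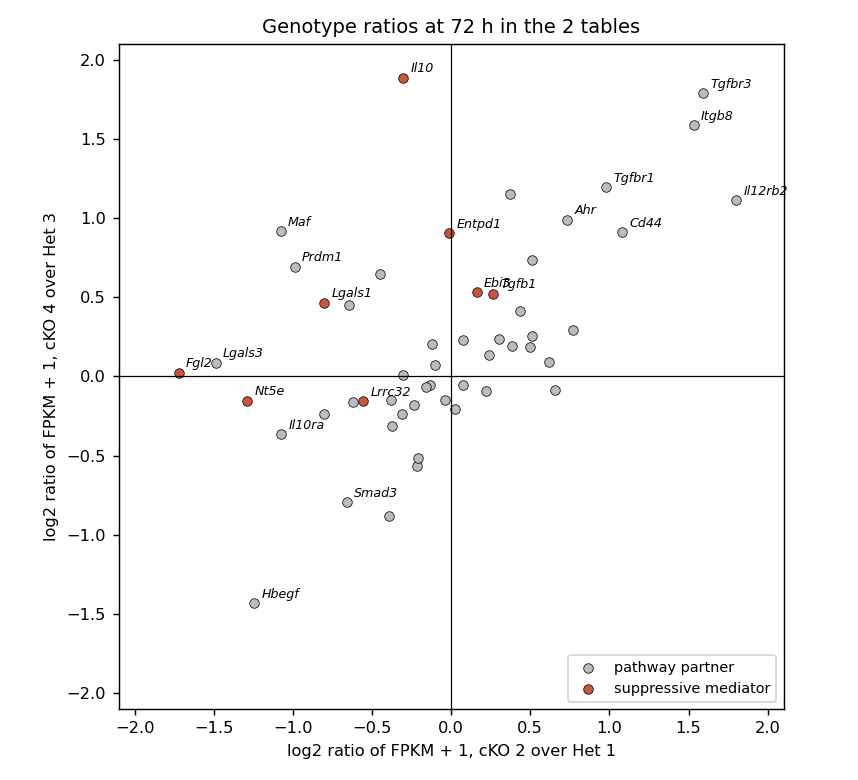
Log2 ratio of FPKM + 1, cKO over Het, at 72 h in the first table (horizontal) and the second table (vertical), for the 8 tested mediators in red and 44 pathway partners in grey, 1 point per gene. Tgfbr3, Itgb8 and Tgfbr1 lie high on both axes and Hbegf low on both, while Il10, Maf, Prdm1 and Lgals1 lie in the upper left, where the tables disagree.

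Between 48 h and 72 h, Fgl2 and Entpd1 stood higher and Areg lower in both genotypes. Fgl2 went from 1.98 to 16.9 FPKM in Het 1, or 8.52-fold, and from 1.78 to 4.42 in cKO 2, or 2.48-fold. Entpd1 went from 19.0 to 42.4 and from 22.5 to 42.0, that is 2.23-fold in Het 1 and 1.86-fold in cKO 2. Areg went the other way, from 27 fragments to 1 in Het 1, a ratio of 0.0509 with a counting interval of 0.00124 to 0.309, and from 38 to 14 in cKO 2, a ratio of 0.348 (0.174 to 0.656). On the log2(FPKM + 1) scale Fgl2 and Entpd1 were past 2-fold higher in Het 1, where 4.57% of genes were and 2.69% were lower, and no mediator was in cKO 2, where 2.83% and 0.831% were.

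**Figure D4:**
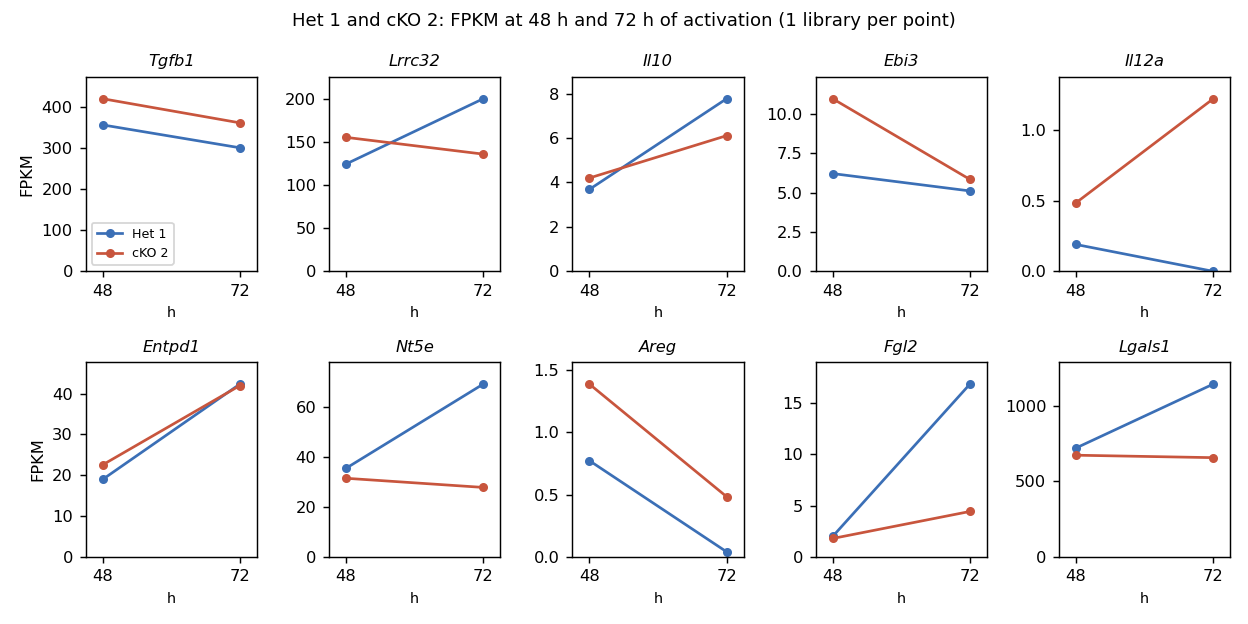
FPKM of each mediator at 48 h and 72 h in the first table, with Het 1 in blue and cKO 2 in red and 1 library per point. Il10, Entpd1 and Fgl2 are higher at 72 h in both genotypes, Tgfb1, Ebi3 and Areg lower in both, and Lrrc32, Nt5e and Lgals1 are higher in Het 1 and lower in cKO 2.

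None of these differences passed the test for time. The estimate for time rests on the first table, with 1 pair of libraries per genotype. The log2 fold change over genotypes was 1.77 ± 0.45 for Fgl2 (SE, limma adjusted p = 0.353), 0.99 ± 0.24 for Entpd1 (limma adjusted p = 0.331) and -0.52 ± 0.20 for Ebi3 (limma adjusted p = 0.439). Of the 8 mediators 0 passed, against 0.0242% of 12394 genes, and 2 were higher and 1 lower at an unadjusted p under 0.05, against 6.45% and 4.63% of genes (11.1% in all). The genes that passed, all higher at 72 h, were Tgm2, Cd8a and Gzmb. The median over the 8 was 0.35 and that over all genes 0.00. Il10 was 0.68 ± 0.52 and Tgfb1 -0.23 ± 0.13 (SE). Of the 10 mediators, 3 were higher at 72 h in both genotypes and 3 lower, where 28.7% and 26.6% of genes were. Lrrc32, Nt5e and Lgals1 were higher in Het 1 and lower in cKO 2, as 18.3% of genes were, and Il12a was the reverse; 44.6% of genes went opposite ways.

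Whether genotype differences changed with time was tested by the interaction term. Of the 8 mediators 0 passed, as did 0% of genes, and limma's adjusted p ran from 0.856 to 0.982. No mediator had an unadjusted p under 0.05, against 5.71% of all genes (3.43% higher and 2.28% lower).

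The partners of these mediators, their receptors, activators and regulators, were counted from a list of 54 symbols. A gene in the tables matched 53 of them, and 44 genes were tested at 72 h. Of these, 22 were higher and 22 lower in cKO, with a median log2 fold change of 0.00. None passed limma's adjusted p, and 7 higher and 5 lower partners had an unadjusted p under 0.05, against 10.3% and 6.99% of all genes. In both tables alike, 17 partners were higher and 15 lower, and 12 differed in direction between tables, where 42.6% and 24.5% of genes were higher or lower in both. Over both times 0 partners passed, and for time and the interaction 0 passed too.

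Among the release genes of TGF-beta, 1 of 5 tested had an unadjusted p under 0.05 for genotype at 72 h. Among its receptors and transducers 4 of 9 did, against 17.3% of all genes, and 0 passed. Itgb8, the integrin chain that frees TGF-beta from GARP, was 1.98 and 3.47 FPKM in the Het libraries at 72 h, against 7.63 and 12.4 in the cKO libraries. Its log2 difference was 1.56 ± 0.16 (SE, limma adjusted p = 0.106). At 48 h Itgb8 was 7.12 in Het 1 and 6.17 in cKO 2, close to each other. The co-receptor Tgfbr3 stood at 1.69 ± 0.16 (SE, limma adjusted p = 0.106) and the signalling receptor Tgfbr1 at 1.09 ± 0.13 (SE, limma adjusted p = 0.121). Smad3, which carries the signal to the nucleus, was 45.4 and 60.8 in Het and 28.4 and 34.6 in cKO, which is a log2 difference of -0.73 ± 0.13 (SE, limma adjusted p = 0.153).

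Other partners were named by the same rule. Il12rb2, a receptor chain used by interleukin 12 and interleukin 35, was 4.56 and 2.23 FPKM in the Het libraries against 18.4 and 5.99 in the cKO libraries, and Il10ra, the ligand-binding chain of the interleukin 10 receptor, was 49.1 and 61.0 in Het and 22.8 and 47.1 in cKO. Their log2 fold changes at 72 h were 1.46 ± 0.23 and -0.72 ± 0.22 (SE, limma adjusted p = 0.139 and 0.248). Hbegf, another ligand of the amphiregulin receptor, stood at -1.34 ± 0.17 (SE, limma adjusted p = 0.121). Cd44, which galectins can bind, was 32.0 and 34.1 FPKM in the libraries labelled Het at 72 h against 68.9 and 64.9 in those labelled cKO (limma adjusted p = 0.121). Among regulators of Il10, the ligand-activated factor Ahr stood at 0.86 ± 0.15 (SE) and Bhlhe40, a repressor of Il10, at -0.64 ± 0.17 (SE), with limma adjusted p = 0.154 and 0.228. The adenosine receptor Adora2b stood at 0.62 ± 0.23 (SE, limma adjusted p = 0.299). The Fgl2 receptors Fcgr2b and Fcgr3 had a mean under 1 FPKM and were not tested.

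For the 4 mediators with a mean of at least 5 FPKM and a range of at least 1, the genes of nearest pattern were sought among 8853 candidates. Likeness was the root mean square difference of log2(FPKM + 1), centred within table, over the 6 libraries. Plcd1 (0.11) and Tnfrsf8 (0.14), which encodes CD30, were nearest to Il10, and Tnfrsf8 was 11.8 FPKM in Het 3 and 62.4 in cKO 4. Il7r (0.09) and Pla2g16 (0.10) were nearest to Entpd1, Zbtb42 (0.04) and Tspoap1 (0.04) to Nt5e, and Ppm1j (0.15) and Pigz (0.19) to Fgl2. The likeness is a description over 6 libraries that share their tables.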

How the data were processed

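RNA sequencing values of 6 libraries of sorted and activated mouse Treg cells were analysed as FPKM deposited by the authors in 2 tables, not as counts. Per the labels' protocols, the SMART-Seq v4 kit was used for the libraries. Per the submitters' processing notes, Bowtie2 2.2.3, TopHat2 2.0.12 and HTSeq 0.6.1 were used with the build mm9. What each tool did, the annotation and the use of strand were not given in the sources used here, so reads of overlapping or antisense genes cannot be told apart. Of 47347 rows shared by the tables, 47069 carried an Ensembl ID and 46488 a symbol; the rest were not used.

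Tests ran on log2(FPKM + 1), where changes of low genes come out too small, and genes below a mean of 1 FPKM were left out. The tool was limma 3.58.1 (R 4.3.3) with a variance trend and the table as a term, and Benjamini-Hochberg adjustment ran over all genes tested. The genotype at 72 h used 4 libraries, and genotype over both times, time and their interaction used all 6. The 48 h libraries are only in the first table, so the table term leaves the estimate for time to that table. The fits were tested on simulated data.

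Fragment numbers were estimated from FPKM, mean annotated transcript length (GENCODE vM21) and the library size at which low values became whole. In each library 86.0% to 86.8% of low values then lay within 0.02 of a whole number, against 3.53% to 4.29% with lengths scrambled, and those of Areg and Il12a lay within 0.0353. They serve counting intervals only, and no count test was run.

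All members were named, 1 to 3 partners per role group by the smallest unadjusted p for genotype at 72 h (Maf, Prdm1, Nfil3 and Stat3, and the partner chains and receptors that were not tested, were named outside this rule), and the 2 genes of nearest pattern per member. The members and lists were chosen with earlier results of these data known. Alternatives covered the pseudocount (0.1 and 5), the filter, TPM rescaling, median centring, quantile normalization, the table term, the variance trend, each library left out and the replicate block.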

Additional observations from a re-analysis of the deposited data

Results flagged for a closer look

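Between 48 h and 72 h, 4 mediators went opposite ways in Het 1 and cKO 2 within the first table, as 44.6% of 12394 genes did. There was 1 pair per genotype, so within this table the difference was not tested. The interaction term over both tables did not pass for the 3 tested there.

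Nt5e differed between the times by 0.95 on the log2(FPKM + 1) scale in Het 1 and by -0.17 in cKO 2, a difference of 1.12, with a limma adjusted p of 0.870 for the interaction. Lrrc32 differed between the times by 0.68 and -0.19, a difference of 0.87 (limma adjusted p = 0.856). Lgals1 differed between the times by 0.67 and -0.04, a difference of 0.70 (limma adjusted p = 0.982). Il12a differed between the times by -0.25 and 0.58, a difference of -0.83, on at most 32 fragments per library and below the mean needed for the test. Nt5e, Lrrc32 and Lgals1 thus stood higher at 72 h in Het 1 and lower in cKO 2, and cKO 2 at 72 h is the library with the highest sums of B cell and of CD8 T and NK cell markers, whose part was not tested.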

How the results depend on the processing

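No mediator passed under any setting run for any of the 4 tested comparisons. Across 296 values of single mediators under other settings of analysis, 295 kept their direction; the exception was Lgals1 in the interaction, at 0.036 with quantile normalization. With 1 library left out, 132 of 160 values kept their direction. At 72 h leaving out a library leaves 1 pair and no test; the values then ran from -0.30 to 1.89 for Il10, -0.012 to 0.90 for Entpd1, -1.72 to 0.024 for Fgl2 and -0.80 to 0.46 for Lgals1. For the interaction, also with no test, they ran from -0.45 to 1.74 for Il10, -0.25 to 0.67 for Entpd1, -1.12 to 0.015 for Nt5e, -1.62 to 0.12 for Fgl2 and -0.70 to 0.56 for Lgals1. Over both times they ran from -0.077 to 1.02 for Il10, -0.36 to 0.081 for Lrrc32, -0.45 to 0.18 for Lgals1, -0.73 to -0.16 for Nt5e, 0.11 to 0.57 for Entpd1 and -0.91 to -0.038 for Fgl2. For time they ran from 0.016 to 1.34 for Il10, -0.76 to -0.29 for Ebi3, -0.092 to 0.58 for Lrrc32, -0.18 to 0.95 for Nt5e and -0.18 to 0.81 for Lgals1. Without cKO 2 at 72 h the time difference of Fgl2 was 2.62 (limma adjusted p = 0.0651), and over all the libraries left out it ran from 0.93 to 2.62.

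Counts over all genes moved more. Without a filter on low values 8 genes passed for genotype at 72 h against 0, none of them a mediator. For genotype over both times, 0 to 7 genes passed with 1 library left out, the 7 without either library of the second table. For time 3 genes passed, against 1 with a pseudocount of 5, 0 without a filter, 0 without the table term, and 0 to 4 with 1 library left out (0 without Het 1 or cKO 2 at 48 h, 1 without Het 1 at 72 h). The replicate block, with the replicate number in place of genotype and table, gave 0 for time. Whether the numbers pair the samples cannot be checked, since each genotype had 1 library at 48 h. Low counts limit Areg and Il12a, which rest on 0 to 38 fragments. The cause of these differences was not tested.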

Other observations

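The ratio of Lrrc32 to Tgfb1 FPKM within a library, the carrier relative to its cargo, was 0.348 in Het 1 and 0.369 in cKO 2 at 48 h. At 72 h it was 0.664 in Het 1 and 0.375 in cKO 2, and 1.31 in Het 3 and 0.820 in cKO 4. It was lower in the library labelled cKO in both 72 h pairs, while the second table stood above the first table in both genotypes. The ratio was chosen after the values were seen and is given with no test.

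Ebi3 exceeded Il12a by 32.7 times in Het 1 and 22.6 times in cKO 2 at 48 h, on 6 and 12 Il12a fragments, and by 4.78 times in cKO 2 at 72 h, on 32. No ratio is given for the other 72 h libraries, where Il12a had 3 fragments in cKO 4 and was listed at 0 in Het 1 and Het 3.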
